A study of Homo sapiens with 6 samples.

Results

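The genes described here are the SR proteins, heterogeneous nuclear ribonucleoproteins (hnRNPs) and core spliceosome factors, measured in U-87 cells after knockdown of P68. They are a fixed list of 37 genes. Each gene was read from the probe set that carried its symbol alone, and where there were several, from the one with the highest mean over the 6 arrays. By this rule 35 of the 37 genes were measured, out of 18417 genes in all. HNRNPA3 and HNRNPC were not analysed here, since the 3 and 2 probe sets that name them also name other genes.

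Splicing removes introns from a pre-mRNA in a large particle, the spliceosome, built from small nuclear ribonucleoproteins (snRNPs) that recognise the splice sites. SR proteins bind exonic enhancers through RNA recognition domains and draw the spliceosome to nearby sites through tails rich in arginine and serine, whereas many hnRNPs bind silencers and oppose them. Many of these factors also control their own transcripts by splicing in exons that carry a premature stop. P68, the product of DDX5, is an RNA helicase of the DEAD-box family that is known to act on the pairing of U1 with the 5′ splice site.

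U-87 is an established human glioma line, labelled here as brain tissue. Per the labels, one group of 3 arrays is P68 knockdown and the other group of 3 arrays is P68 wild type. The treatment note names an siRNA called siP68 and a reagent abbreviated NC, and does not say which of the groups received NC. The labels name no clone, passage or separate culture, so the replicate spread behind each p-value may be technical. Signals are log2 values from RMA, in which an increase of 1 is a doubling, and every difference below is the knockdown minus the wild type on that scale. The array reports the summed signal of a gene and does not measure which exons are included. In such bulk RNA, a difference in the mix of cells and a difference in RNA per cell cannot be told apart.

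In the targeted gene every array labelled knockdown lay below every wild-type array. DDX5 gave 9.47, 9.79 and 9.91 on knockdown replicates 1, 2 and 3, and 10.09, 10.25 and 10.30 on the wild-type arrays, so the knockdown arrays kept 71.2% of the wild-type signal (95% confidence interval 58.4% to 86.9%, n = 3 per group). Its adjusted p of 0.902 (limma) did not pass the threshold of 0.05. Array medians over all probe sets lay between 4.32 and 4.37, and pairs of arrays correlated with r between 0.979 and 0.990. Of the 9 measured markers of the glioma line, CD44, S100B, SOX2 and TNC were among the dimmest 40% of genes. A signal there may be background, which was not tested. The intermediate filament gene VIM gave 7.50 ± 0.38 on knockdown and 7.70 ± 0.15 on wild-type arrays (SD, n = 3 per group). Of the 9 glioma line markers, 5 lay below 0 and 4 above. FN1, at -0.21, was the only one of the 9 whose groups were separate. Over all genes, 4.15% had every knockdown array below every wild-type array. Of 34 markers of neurons, oligodendrocytes, immune, endothelial and epithelial cells, 13 were among the dimmest 40% and 0 passed the adjusted threshold. Of the 34, 25 lay above 0, against 9662 of all 18417 genes. The 7 oligodendrocyte markers all lay above 0 with a median difference of 0.10, and their mean log2 level ran from 4.81 to 4.85 on knockdown arrays and from 4.67 to 4.76 on wild-type arrays. Only CNP among them had separate groups, and MAG gave 0.007. The mean of the immune markers was also separate, at 4.12 to 4.15 with knockdown and 4.04 to 4.11 with wild type. The largest immune differences were 0.42 for CD14, itself among the dimmest 40%, and 0.27 for C1QB, whereas PTPRC, ITGAM and AIF1 lay below 0. Besides CNP, the markers with separate groups were CD14, STMN2, SYT1, CLDN5 and KRT19, all higher with knockdown, against 5.98% of all genes. Above 0 lay 5 of 8 immune, 5 of 6 endothelial, 4 of 5 epithelial and 4 of 8 neuron markers. The part of these markers in the results below was not tested.

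No splicing factor passed the test. Of the 35 measured genes, 0 passed an adjusted p of 0.05 in limma over all 18417 genes, of which 0% passed, and 0 had an unadjusted p under 0.05, against 5.09% of all genes. The lowest adjusted p among them was 0.902. The differences were small and mostly negative: 27 of the 35 lay below 0, against 46.5% of all genes, and their median was -0.07, against 0.01 for all genes. The differences ran from -0.27 for PTBP2, an hnRNP known for its role in neuronal splicing, and for SF3B1, a U2 snRNP subunit, to 0.11 for SF3A1, another subunit of that particle. None reached a difference of 0.5 in either direction, and of all 18417 genes only 56 did. For 33 of the 35 genes the 95% confidence interval lay within a 1.5-fold change in either direction, and the exceptions were TRA2A and RBM39. The same held for 17168 of all 18417 genes, so this count does not set the splicing factors apart. The 33 include HNRNPA1, which was among the dimmest 40% of genes. In 4 genes the knockdown arrays all lay below the wild-type arrays, against 4.15% of all genes, and in 0 they all lay above, against 5.98%. Among the brightest 10% of genes by mean signal the share with all knockdown arrays below was 6.62%. That set holds 27 of the 35 genes, and 3 of these 27 had all knockdown arrays below. Counted in either direction, the groups were separate in 4 of the 35 genes and in 10.1% of all genes.

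**Figure D1:**
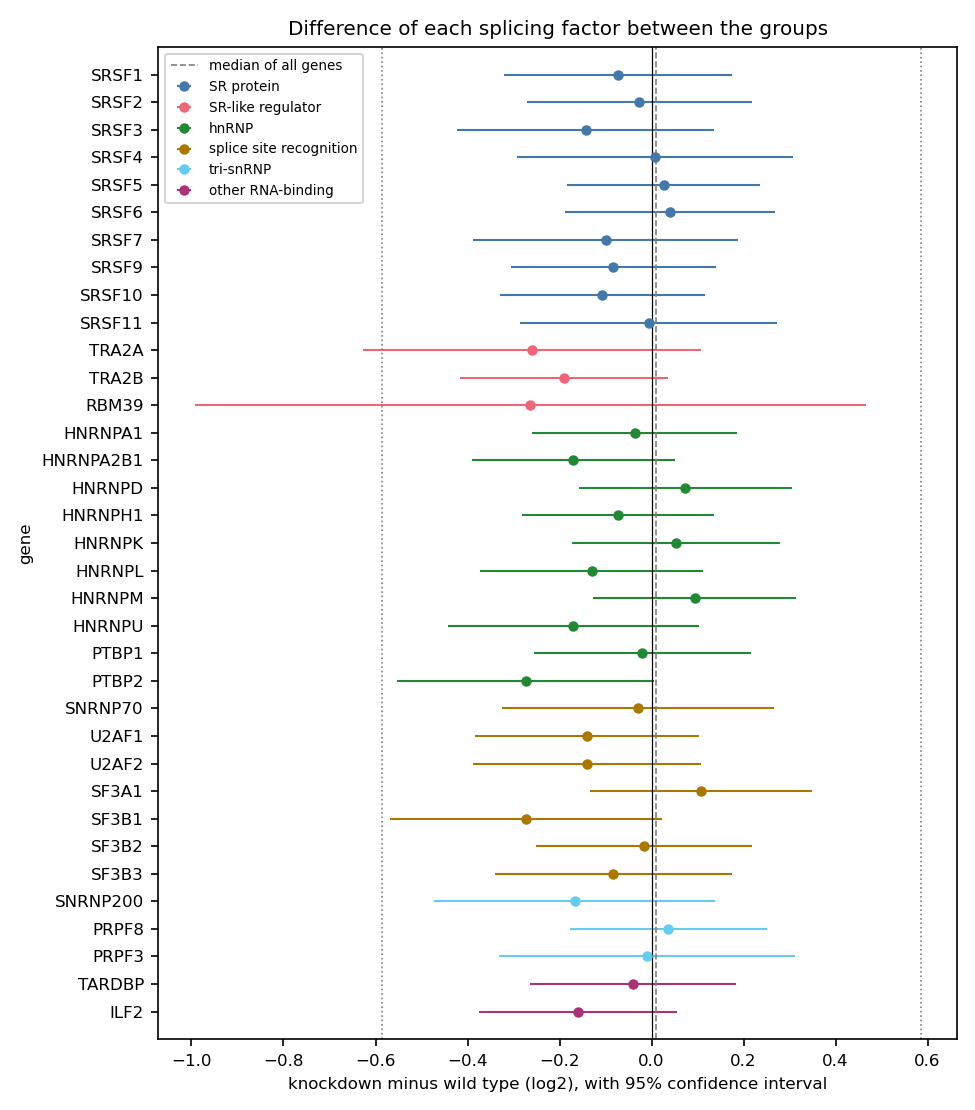
Difference between P68 knockdown and P68 wild type for each of the 35 genes (points, log2 scale on the horizontal axis) with the 95% confidence interval from limma (lines), coloured by role. Dotted lines mark a 1.5-fold change in either direction and the dashed line the median of all genes at 0.01. All intervals cross 0, and only those of TRA2A and RBM39 pass a dotted line.

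The splicing factors were bright genes, and bright genes as a whole lay lower than others. Ordered by mean signal, 27 of the 35 splicing factors were in the brightest 10% of all genes. In that brightest 10%, 60.8% of all 1842 genes lay below 0 with a median of -0.04, whereas the median of every dimmer set of the same size lay between 0.007 and 0.02. The 27 splicing factors there had 22 values below 0 and a median of -0.08. When quantile normalization was repeated on the gene values, the share of all genes below 0 in the brightest 10% was 49.9%, and that of the 27 splicing factors was 59.3% with a median of -0.01. After cyclic loess between the arrays the shares were 49.9% and 63%. Over all 35 genes, 21 lay below 0 after repeated quantile normalization and 22 after cyclic loess, with a median of -0.02 under both. The 8 splicing factors outside the brightest 10% had 5 values below 0 under all 3 scalings. The ordering by brightness was chosen after the values were seen.

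**Figure D2:**
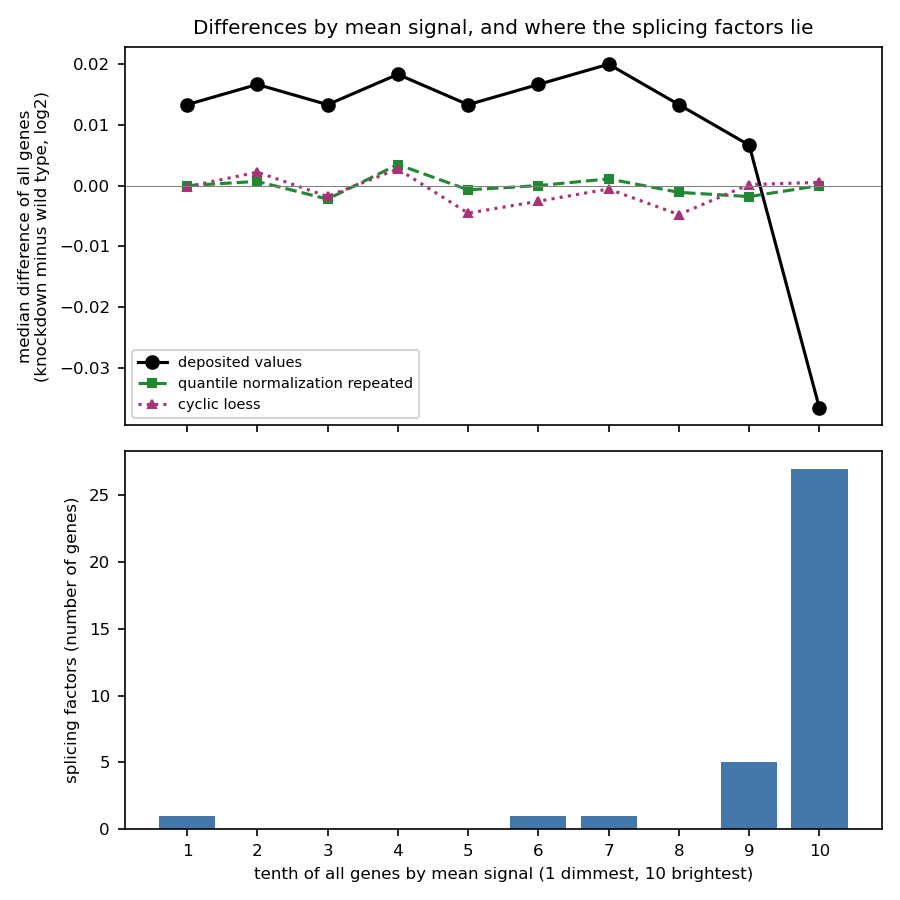
Upper plot, the median difference of all genes (knockdown minus wild type, log2) in 10 sets of equal size ordered by mean signal, as deposited and under 2 other scalings. Lower plot, the number of splicing factors in each set, of which 27 are in the brightest, where the deposited values have a median of -0.04.

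The 4 genes whose groups did not overlap were TRA2B, HNRNPA2B1, HNRNPH1 and ILF2. TRA2B, which binds purine-rich exonic enhancers, gave 8.39, 8.45 and 8.56 on knockdown replicates 1, 2 and 3 and 8.62, 8.75 and 8.60 on the wild-type arrays. The highest knockdown array was thus 8.56 and the lowest wild-type array 8.60, and the difference was -0.19 ± 0.10 (SE, n = 3 each, adjusted p = 0.902, limma). HNRNPA2B1, an hnRNP of the A/B type that packages nascent RNA, gave 9.53, 9.44 and 9.55 with knockdown and 9.72, 9.73 and 9.58 with wild type. Its difference was -0.17 ± 0.10 (SE), and wild-type replicate 3 lay close to the knockdown arrays. HNRNPH1, which binds runs of G, gave 7.92, 7.96 and 7.98 with knockdown and 8.06, 8.03 and 7.99 with wild type. The groups were separated by a single step of the last decimal, with a difference of -0.07 ± 0.09 (SE) that became 0.0061 after repeated quantile normalization. ILF2, an RNA-associated protein that is not itself a spliceosome subunit, gave 6.13, 6.06 and 6.12 with knockdown and 6.18, 6.30 and 6.31 with wild type. Its difference of -0.16 ± 0.10 (SE) stayed between -0.20 and -0.14 with any 1 array left out. In exact permutation tests (two-sided) p was 0.1 for each of the 4 genes. Groups of 3 arrays that do not overlap always give this value, the smallest possible. It therefore adds nothing to the choice of these genes.

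The promoters of these 4 genes are shown because they are the genes of the list whose knockdown arrays all lay below the wild-type arrays. Each sequence runs from 250 bases before to 50 bases after a transcription start, from RefSeq on GRCh38.p14, and capitals mark matches on either strand to 7 motifs that are given after the sequences. Entries were found for 31 of the 37 listed genes and not for SRSF2, TRA2A, RBM39, HNRNPA1, SF3B3 and PRPF3. HNRNPH1 has 4 starts in the table, and the start with the most matches is printed. All 4 lie on the minus strand, TRA2B at chr3:185937965-185938264, HNRNPA2B1 at chr7:26200697-26200996, HNRNPH1 at chr5:179623622-179623921 and ILF2 at chr1:153670944-153671243.
TRA2B: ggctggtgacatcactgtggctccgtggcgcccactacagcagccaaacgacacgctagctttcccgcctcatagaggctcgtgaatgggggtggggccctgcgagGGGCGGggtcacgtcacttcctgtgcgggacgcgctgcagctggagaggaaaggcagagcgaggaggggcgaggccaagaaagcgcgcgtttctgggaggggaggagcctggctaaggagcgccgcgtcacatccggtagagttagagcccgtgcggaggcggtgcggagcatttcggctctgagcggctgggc
HNRNPA2B1: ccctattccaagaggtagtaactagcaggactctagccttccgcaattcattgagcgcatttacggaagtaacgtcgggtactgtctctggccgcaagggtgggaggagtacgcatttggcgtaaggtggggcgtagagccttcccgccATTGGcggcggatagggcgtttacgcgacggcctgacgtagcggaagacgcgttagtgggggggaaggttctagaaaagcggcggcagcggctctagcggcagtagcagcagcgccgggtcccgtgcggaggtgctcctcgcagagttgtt
HNRNPH1: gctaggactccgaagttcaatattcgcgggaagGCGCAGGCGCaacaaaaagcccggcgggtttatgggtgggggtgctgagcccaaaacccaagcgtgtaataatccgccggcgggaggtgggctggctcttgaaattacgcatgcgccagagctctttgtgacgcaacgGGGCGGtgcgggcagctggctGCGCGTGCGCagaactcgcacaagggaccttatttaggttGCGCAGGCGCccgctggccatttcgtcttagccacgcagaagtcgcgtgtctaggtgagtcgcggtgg
ILF2: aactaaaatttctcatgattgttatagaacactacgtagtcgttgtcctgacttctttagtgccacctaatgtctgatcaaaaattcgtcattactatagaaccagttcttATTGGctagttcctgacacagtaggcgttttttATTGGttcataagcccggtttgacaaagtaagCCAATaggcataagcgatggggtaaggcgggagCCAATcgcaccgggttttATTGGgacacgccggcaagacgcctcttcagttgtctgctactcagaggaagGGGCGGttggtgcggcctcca

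The motifs were the TATA box (TATAAA), the CCAAT box (CCAAT), the GC box (GGGCGG), an ETS core (CCGGAAG), a site of the factor NRF1 (GCGCA and GCGC with any 1 base between them), a site of YY1 (ATGGCGGC) and a palindrome (TCTCG followed by CGAGA), and matches may overlap. The 4 promoters shared no single motif. The window of TRA2B held 1 GC box and that of HNRNPA2B1 held 1 CCAAT box. The window of ILF2 held 5 CCAAT boxes and 1 GC box, and 5 or more CCAAT boxes occurred in 0.359% of all 35116 promoter entries. That of HNRNPH1 held 3 NRF1 sites and 1 GC box, and 3 or more NRF1 sites occurred in 0.196% of entries. Both cut-offs were set at the counts seen, and the HNRNPH1 window was the start with the most matches of its 4. These 2 shares are therefore not a fair measure of how rare the windows are. The NRF1 site was found for 8 genes of the list, SRSF1, SRSF9, SRSF10, HNRNPH1, HNRNPM, PTBP1, SNRNP70 and SF3B1, of which HNRNPM lay above 0 and the other 7 below. Of all 35 measured genes 27 lay below 0. Among the 7, SNRNP70 at -0.03 and PTBP1 at -0.02 were near 0, and SRSF1, SRSF9, HNRNPH1 and SNRNP70 turned above 0 under a scaling. A link of the motif to the differences was not tested. Across the 40 entries of the listed genes, the NRF1 site was in 22.5% against 5.78% of all entries and 7.39% of protein-coding entries, and the YY1 site was in 15% against 3% and 3.91%. The ETS core was in 20% against 10.3% and 12.8%, and the GC box in 60% against 45% and 56.3%. The palindrome was in 5% against 0.424% and 0.568%, which is only 2 of the 40 entries, those of HNRNPK and SRSF10. The TATA box was in 12.5% against 11.5% and 9.47%, and the CCAAT box in 30% against 34.6% and 34.7%. The median promoter of the list had 30 CG dinucleotides and 64% G and C, where the median protein-coding promoter had 21 and 62.3%. A match describes letters and not binding, and starts of the same gene share sequence.

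Among the 10 SR proteins, the activators that bind exonic enhancers, 7 lay below 0 and 3 above, with a median of -0.05 that became 0.02 after cyclic loess and 0.0079 after repeated quantile normalization. In none of them were the groups separate. SRSF3, the smallest SR protein, gave 4.48, 4.85 and 4.64 on knockdown replicates 1 to 3 and 4.63, 4.90 and 4.87 on the wild-type arrays, so knockdown replicate 2 lay inside the wild-type range. Its difference of -0.14 ± 0.13 (SE) was the most negative of the SR proteins and moved to -0.055 without knockdown replicate 1 and to -0.24 without knockdown replicate 2. SRSF10, an SR protein known to repress splicing when dephosphorylated, gave 7.28, 7.47 and 7.36 against 7.43, 7.54 and 7.46, with knockdown replicate 2 again above the lowest wild-type array. Its difference was -0.11 ± 0.10 (SE), or -0.06 without knockdown replicate 1, and its second probe set gave -0.09. SRSF1, the first SR protein to be described and known as an oncogene in several tumours, gave 11.10 ± 0.12 against 11.18 ± 0.13 (SD, n = 3 per group, knockdown first). The remaining differences were -0.10 for SRSF7, which is related to SRSF3, -0.08 for SRSF9, -0.03 for SRSF2, -0.007 for SRSF11, 0.007 for SRSF4, 0.03 for SRSF5 and 0.04 for SRSF6. Each of the 10 had a 95% confidence interval within a 1.5-fold change, as did 17168 of all 18417 genes.

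**Figure D3:**
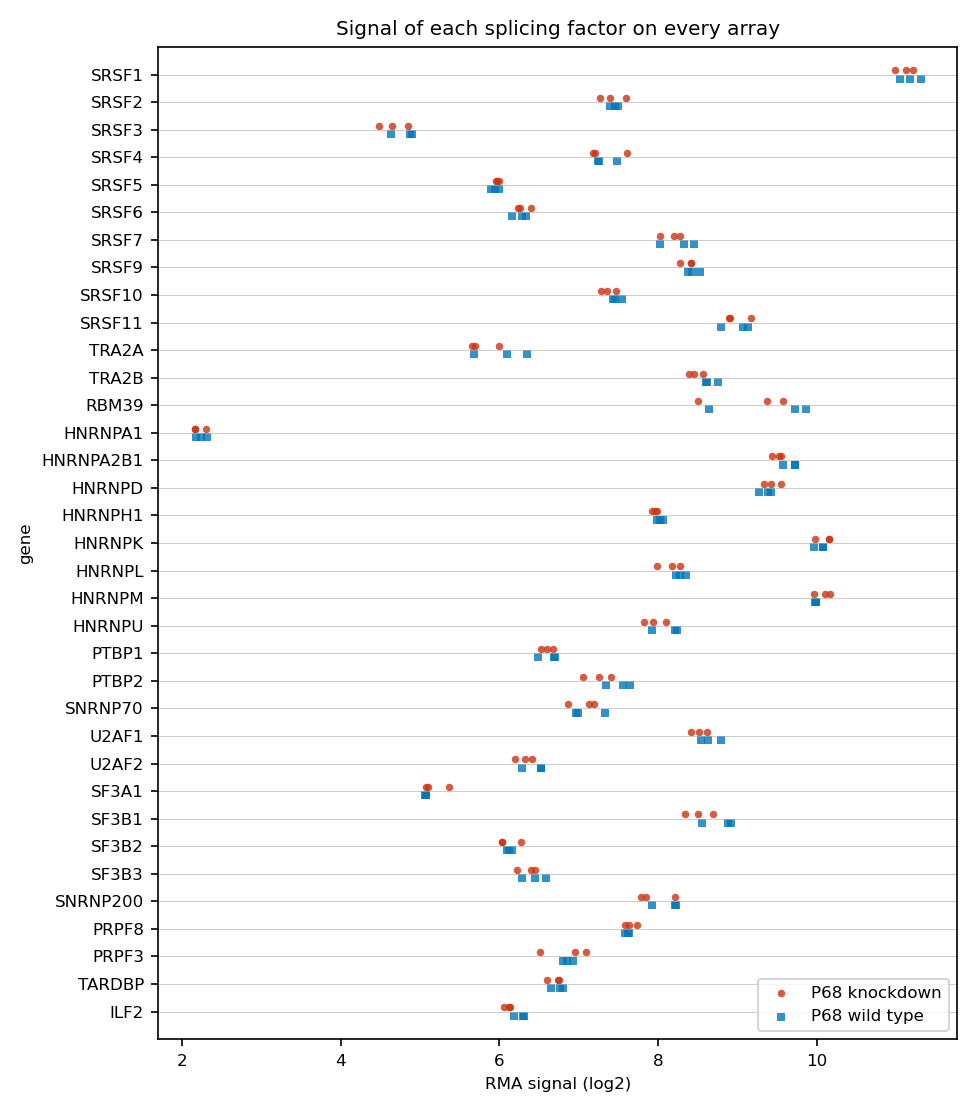
RMA signal (log2, horizontal axis) of each of the 35 genes on the 3 P68 knockdown arrays (circles) and the 3 P68 wild-type arrays (squares). The groups overlap in 31 genes, RBM39 is low on 1 array of each group, and HNRNPA1 sits near 2.2 on all 6.

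The 3 SR-like regulators, which carry arginine and serine rich regions but are not classical SR proteins, had the lowest median of the roles at -0.26, which was -0.44 without wild-type replicate 1 and -0.105 without wild-type replicate 2. RBM39 and TRA2A also had the largest pooled SD within groups of the 35 genes. RBM39, a coactivator related to U2AF2 that helps to choose 3′ splice sites, gave 8.50, 9.37 and 9.57 on knockdown replicates 1, 2 and 3 and 8.64, 9.86 and 9.73 on the wild-type arrays. Replicate 1 was the low array in both groups, and the SD was 0.57 among knockdown arrays and 0.67 among wild-type arrays. Pooled over the groups, this spread was larger than that of 99.9% of all genes. The difference of -0.26 ± 0.33 (SE) was -0.65 once wild-type replicate 1 was dropped, 0.06 once knockdown replicate 1 was dropped, and -0.325 with both replicate 1 arrays left out. TRA2A, the paralog of TRA2B, gave 5.66, 5.69 and 5.99 with knockdown and 5.68, 6.35 and 6.09 with wild type. Wild-type replicate 1 lay at the level of the lower knockdown arrays, and the difference of -0.26 ± 0.17 (SE) moved to -0.44 without wild-type replicate 1 and to -0.105 without wild-type replicate 2. Its second probe set gave -0.33. The values of TRA2B stand above, and its difference ran from -0.24 to -0.14 with single arrays left out and was -0.10 after repeated quantile normalization.

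Of the 10 measured hnRNPs, 7 lay below 0 and 3 above, with a median of -0.055, which was -0.03 without knockdown replicate 2. PTBP2, the neuronal paralog of the repressor PTBP1, gave 7.05, 7.26 and 7.41 on knockdown replicates 1, 2 and 3 and 7.34, 7.56 and 7.64 on the wild-type arrays. Knockdown replicate 3 lay above wild-type replicate 1, so the groups overlapped. The difference was -0.27 ± 0.13 (SE, adjusted p = 0.902, limma), so that 82.7% of the wild-type level remained (95% confidence interval 68.2% to 100.4%). It was -0.18 without knockdown replicate 1. PTBP1, which binds tracts of pyrimidines and is known to repress the splicing of PTBP2 into a stable mRNA in cells that are not neurons, gave 6.60 ± 0.08 against 6.62 ± 0.12 (SD, n = 3 per group, knockdown first), a difference of -0.02 ± 0.11 (SE). HNRNPU, a scaffold protein of the nuclear matrix, gave 7.82, 7.94 and 8.10 with knockdown and 7.92, 8.24 and 8.21 with wild type, and both replicate 1 arrays were the lowest of their groups. Its difference was -0.17 ± 0.12 (SE), equal to that of HNRNPA2B1, and was -0.10 without knockdown replicate 1. HNRNPL, which binds CA repeats, gave -0.13, and it gave -0.05 without knockdown replicate 2. The genes above 0 were HNRNPM at 0.09, HNRNPD, also known for binding AU-rich mRNA, at 0.07 and HNRNPK, which binds poly(C), at 0.05.

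HNRNPA1 could not be assessed in the same way. Its single own probe set gave 2.21 ± 0.08 against 2.24 ± 0.08 (SD, n = 3 per group, knockdown first), in the dimmest 10% of all genes, and another 4 probe sets name HNRNPA1 together with other genes and were not used. It was the only 1 of the 35 genes among the dimmest 40%.

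Of the 7 genes that recognise splice sites, 6 lay below 0, with a median of -0.08 that was -0.015 without knockdown replicate 2. SF3B1, the U2 snRNP subunit that holds the branch point helix and is recurrently mutated in blood cancers, gave 8.34, 8.50 and 8.69 on knockdown replicates 1, 2 and 3 and 8.55, 8.92 and 8.88 on the wild-type arrays. Knockdown replicate 3 exceeded wild-type replicate 1, and the difference was -0.27 ± 0.13 (SE, adjusted p = 0.902, limma), with 82.7% of the wild-type level remaining (95% confidence interval 67.4% to 101.6%). Dropping wild-type replicate 1 gave -0.39, and dropping knockdown replicate 1 gave -0.19. U2AF1 and U2AF2 form the dimer that reads the 3′ splice site, U2AF1 at its AG and U2AF2 at the pyrimidine tract. U2AF1 gave 8.62, 8.51 and 8.41 against 8.79, 8.63 and 8.54, and U2AF2 gave 6.41, 6.19 and 6.32 against 6.52, 6.53 and 6.29. Both had a difference of -0.14 ± 0.11 (SE), and in both the groups overlapped. U2AF1 was at -0.07 without wild-type replicate 1, and U2AF2 at -0.08 without knockdown replicate 2. The partners of SF3B1 gave -0.08 for SF3B3, -0.02 for SF3B2 and 0.11 for SF3A1, where knockdown replicate 1 at 5.36 stood above the other 5 arrays at 5.06 to 5.10. SNRNP70, the U1 protein at the 5′ splice site, gave 7.06 ± 0.17 against 7.09 ± 0.21 (SD, n = 3 per group, knockdown first).

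The 3 factors of the U4/U6.U5 tri-snRNP, which carries the spliceosome to its active form, had a median of -0.01 that was 0.045 without knockdown replicate 2, 0.013 after cyclic loess and 0.0028 after repeated quantile normalization. SNRNP200, the helicase that unwinds U4 from U6, gave 7.85, 7.79 and 8.21 on knockdown replicates 1, 2 and 3 and 7.92, 8.21 and 8.22 on the wild-type arrays. Knockdown replicate 3 was as high as the wild-type arrays 2 and 3, and the difference of -0.17 ± 0.14 (SE) became -0.09 when knockdown replicate 2 was dropped and -0.30 when replicate 3 was. PRPF8, the protein around the catalytic centre, gave 7.58, 7.63 and 7.73 against 7.63, 7.62 and 7.58, a difference of 0.04 ± 0.10 (SE). PRPF3, a U4/U6 protein, gave -0.01 ± 0.14 (SE), with knockdown replicate 2 at 6.51 and the other 5 arrays between 6.80 and 7.09, and it gave 0.16 without that array. TARDBP, the RNA-binding protein TDP-43 that represses cryptic exons, gave 6.60, 6.75 and 6.74 against 6.65, 6.76 and 6.80. Its difference was -0.04 ± 0.10 (SE), and ILF2, the other gene of this remaining pair, is described above.

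In 10 of the 35 genes both replicate 1 arrays lay below the other 4, namely SRSF1, SRSF3, SRSF7, SRSF11, TRA2A, RBM39, HNRNPK, HNRNPM, HNRNPU and TARDBP. The same held for 9.72% of all genes and for 15.9% of the brightest 10% of genes. In SRSF4, SNRNP70 and SF3B2 both replicate 1 arrays lay above the other 4, against 9.87% of all genes. Relative to each gene's own mean over the 6 arrays, the median splicing factor stood at -0.06, -0.07 and 0.02 on knockdown replicates 1, 2 and 3 and at -0.04, 0.055 and 0.04 on the wild-type arrays. The groups thus overlapped in this median, with wild-type replicate 1 below knockdown replicate 3. Wild-type replicate 2 was the single highest of the 6 arrays for 14 of the 35 genes, and knockdown replicate 1 the single lowest for 12. With both replicate 1 arrays left out 28 of the 35 genes lay below 0, with a median of -0.095. Within a group the splicing factors varied less than the typical gene, with a median pooled SD of 0.11 against 0.14 for all genes. This pattern of replicate 1 was sought after the values were seen.

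**Figure D4:**
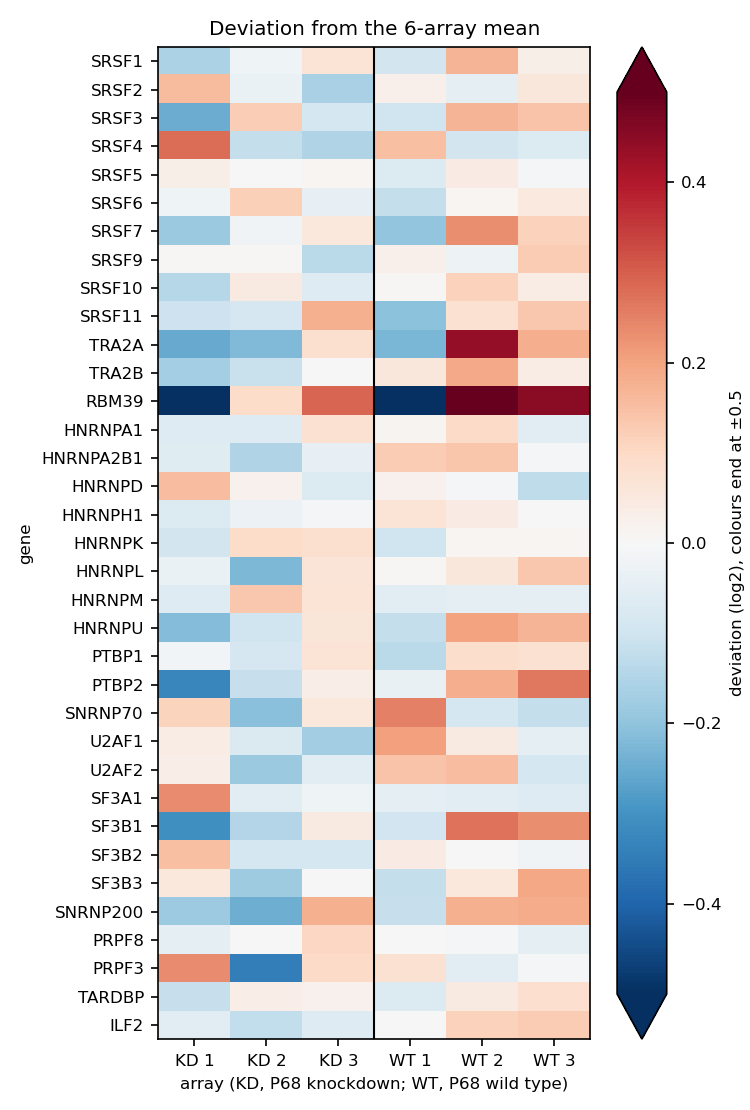
Deviation of each of the 35 genes on each array from its own mean over the 6 arrays (log2, blue below and red above, colours end at 0.5 in either direction). The replicate 1 arrays of both groups are blue for RBM39, TRA2A, HNRNPU and SRSF7, and wild-type replicate 2 is the highest array for 14 genes.

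The wider splicing machinery was compared through 11 further lists holding 156 genes, of which 140 were measured. Of the 140, 0 passed the adjusted threshold in limma, and at an unadjusted p under 0.05 there were 9 lower and 3 higher, against 2.06% and 3.02% of all genes. In all, 97 lay below 0 with a median of -0.07, against 46.5% of all genes. The groups did not overlap for 11 lower and 4 higher genes of the 140, against 4.15% and 5.98% of all genes. The median log2 level of these 140 genes relative to their own means was -0.065 on knockdown replicate 2, the lowest of the 6 arrays.

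The proteins that work with SR proteins lay mostly below 0. Of 15 further SR-related proteins 13 did (median -0.11, or -0.062 without knockdown replicate 3), led by PPIG, a cyclophilin with an arginine and serine rich tail, at 5.66 ± 0.21 against 6.00 ± 0.13 (SD, n = 3 per group, knockdown first). The list of SR protein kinases, which includes the importer TNPO3, had 8 measured genes. All 8 lay below 0, although SRPK2 was near 0 at -0.003 (median -0.13, or -0.073 without wild-type replicate 2). The largest difference was that of CLK4, a kinase that releases SR proteins from nuclear speckles, at -0.23 ± 0.18 (SE). It moved to -0.09 when knockdown replicate 1 was dropped and to -0.43 when wild-type replicate 1 was. Of 15 further hnRNPs 11 lay below 0 (median -0.04, or 0.0017 without wild-type replicate 2, 0.0016 after cyclic loess and 0.013 after repeated quantile normalization). HNRNPH3, of the same family as HNRNPH1, had the largest difference there, at -0.25 ± 0.11 (SE), or -0.165 without knockdown replicate 1.

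Lists of snRNP and catalytic proteins had medians between -0.10 and -0.03. In the further U1 and U2 proteins 10 of 13 lay below 0 (median -0.03, ranging from -0.098 to -0.017 as wild-type replicate 3 or knockdown replicate 2 was dropped), and U2SURP, an SR-related protein bound to U2, gave 7.83, 7.16 and 7.60 on knockdown replicates 1, 2 and 3 and 8.09, 8.01 and 7.78 on the wild-type arrays. Its difference was -0.43 ± 0.16 (SE), or -0.245 without knockdown replicate 2. Of 16 genes of the PRPF19 complex and the catalytic steps 13 lay below 0 (median -0.10, or -0.051 without knockdown replicate 1), with PRPF18, a factor of the second step, at -0.26 ± 0.12 (SE), or -0.14 without wild-type replicate 2. Of 12 further tri-snRNP proteins 9 lay below 0 (median -0.09, or 0.03 without knockdown replicate 2), although the largest difference was that of SART1, a protein of the assembled tri-snRNP, at 0.29 ± 0.12 (SE). Of 14 Sm and LSm core proteins 8 lay below 0 (median -0.05, or 0.01 without knockdown replicate 2), with LSM6, a subunit of the ring on U6 and among the dimmest 40% of genes, at -0.27 ± 0.14 (SE), or -0.42 without wild-type replicate 3 and -0.18 without wild-type replicate 2. All 5 genes of the exon junction complex lay below 0 (median -0.07, or 0.0017 without knockdown replicate 2), with MAGOHB at -0.16 ± 0.11 (SE), or -0.098 without wild-type replicate 2.

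The remaining lists were split around 0. Of 7 minor spliceosome proteins 4 lay below 0 (median -0.05, or 0.09 with the dimmest 40% of genes left out), and RNPC3, itself among the dimmest 40%, gave -0.56 ± 0.45 (SE) with wild-type arrays at 4.76, 3.02 and 5.24. It was -1.22 without wild-type replicate 2 and -0.11 without wild-type replicate 3. Of 23 tissue splicing regulators 13 lay above 0 (median 0.01, or -0.0033 with each array centred), with ELAVL3, a neuronal RNA-binding protein, at 4.47 ± 0.04 against 4.20 ± 0.12 (SD, n = 3 per group, knockdown first). Of 12 spliceosomal snRNA genes 6 lay below 0 and 5 above (median -0.01, or 0.084 without knockdown replicate 2 and 0.053 after cyclic loess). RNU5B-1, a gene of the U5 snRNA, gave 5.68, 4.96 and 5.04 on knockdown replicates 1, 2 and 3 and 5.45, 5.84 and 5.65 on the wild-type arrays, a difference of -0.42 ± 0.18 (SE), and copies of such genes can share probe signal.

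**Figure D5:**
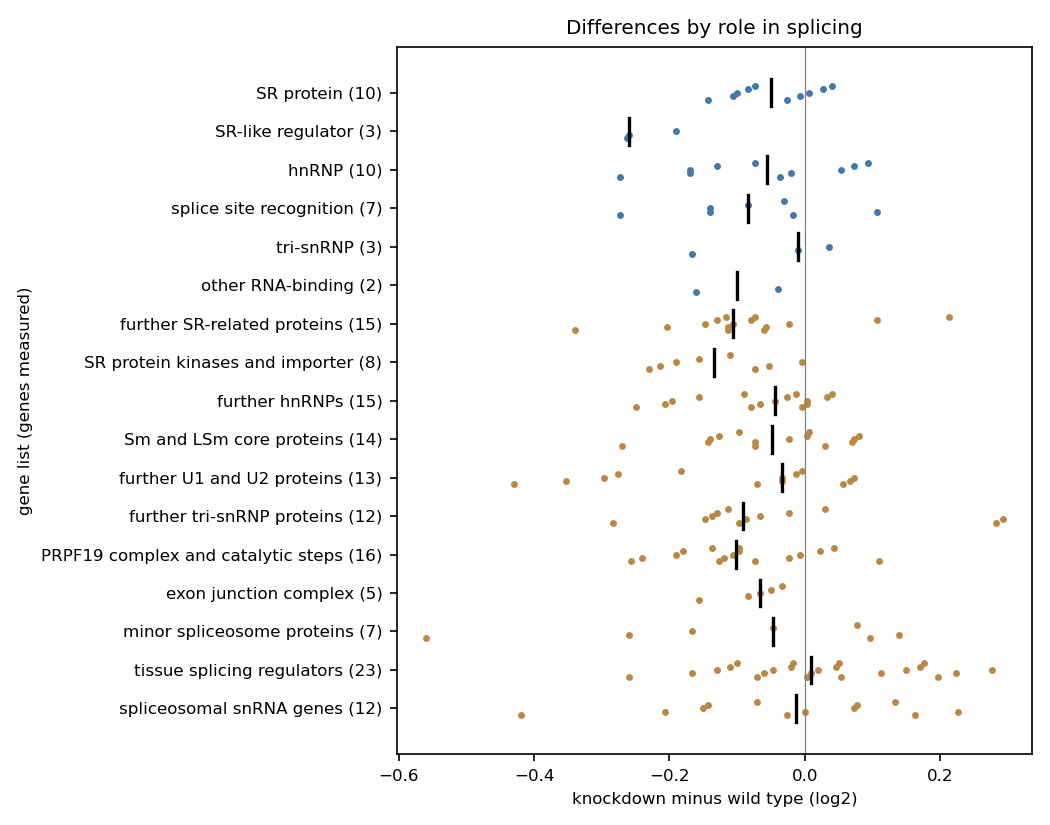
Difference between P68 knockdown and P68 wild type (log2, horizontal axis) for each measured gene, by role (points, blue for the 35 listed splicing factors and brown for the 140 further genes), with the median of each list as a black bar. The SR-like regulators have a median of -0.26, the other 5 roles of the listed genes between -0.10 and -0.01, and the tissue splicing regulators 0.01.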

How the data were processed

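Gene expression was measured on 6 Affymetrix arrays of U-87 cells. The deposited values are log2 signals per probe set, made by the authors with RMA, per the submitters' processing notes. RMA equalises the arrays, so these values cannot show a shift common to the majority of genes. Of 29096 probe sets, 19460 carry 1 gene symbol, 1754 several and 7882 none in the platform annotation, and 19429 matched a RefSeq gene by identifier. Knockdown and wild type were compared over 18417 genes with limma 3.58.1 (lmFit, eBayes), in R 4.3.3. Tests were two-sided, the model held only the group, no gene was filtered out, and Benjamini-Hochberg adjustment ran over all genes. On simulated arrays with 200 genes changed 2-fold, 99.7% of these were recovered and 6.37% of calls were false. The simulated noise was independent between arrays and genes. Changes as small as those of the splicing factors, the most negative being -0.27, were not simulated, so recovery at that size was not tested. The number of arrays limits the precision (median SE 0.12).

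The members and lists were chosen with earlier results of these data known. Values on every array are given for genes past the threshold, genes whose groups did not overlap and the 2 largest differences in each role, ties included. For each further list the largest difference is named. Other values by array were chosen after they were seen. Alternatives covered the scaling (array medians, repeated quantile normalization, cyclic loess), the dimmest 40% of genes, the choice of probe set, the variance model, weights per array, a replicate block, and each array left out. Leaving out both replicate 1 arrays was added after seeing the data.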

Additional observations from a re-analysis of the deposited data

How the results depend on the processing

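With limma, 0 genes and 0 of the 35 splicing factors passed the adjusted threshold under the 16 alternatives run, and the lowest adjusted p of a named gene was 0.651. The number of splicing factors below 0, which was 27, ran from 21 to 28 over all alternatives and from 23 to 26 with single arrays left out. Their median of -0.07 became -0.021 after repeated quantile normalization and lay between -0.093 and -0.055 with single arrays left out. At an unadjusted p under 0.05 there were 0 splicing factors, and at most 4 lower and 0 higher under an alternative, the 4 without wild-type replicate 1. In that setting 1143 of all 18417 genes had an unadjusted p under 0.05 in either direction (limma).

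The direction turned for genes near 0, and also for SRSF7 and SRSF9 under a scaling and RBM39 with 1 array left out. Repeated quantile normalization gave 0.0061 for SRSF7 and for HNRNPH1, 0.039 for SRSF2, 0.0078 for SRSF9, 0.064 for SRSF11 and 0.0028 for PRPF3. Cyclic loess gave 0.063 for SRSF1, 0.018 for SRSF2, 0.081 for SRSF11, 0.0018 for SNRNP70 and 0.013 for PRPF3. Array weights gave 0.00026 for HNRNPA1, -0.016 for SRSF4, 0.016 for SRSF11, 0.035 for SNRNP70 and 0.037 for PRPF3. Centring on array medians gave -0.0067 for SRSF4. Leaving out both replicate 1 arrays, chosen after seeing the data, gave -0.055 for SRSF4, -0.01 for SRSF5 and 0.025 for SNRNP70. With single arrays left out, the range was -0.11 to 0.048 for SRSF2, -0.13 to 0.083 for SRSF4, -0.0017 to 0.053 for SRSF5, -0.01 to 0.075 for SRSF6 and -0.11 to 0.06 for SRSF11. It was -0.65 to 0.06 for RBM39, -0.083 to 0.0017 for HNRNPA1, -0.092 to 0.018 for PTBP1, -0.097 to 0.088 for SNRNP70 and -0.097 to 0.023 for SF3B2. It was -0.13 to 0.16 for PRPF3, -0.005 to 0.07 for PRPF8 and -0.083 to 0.0083 for TARDBP. Apart from the alternatives' own construction, the cause was not tested.

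Deviations of all genes from their group means correlated with r of 0.27 between the replicate 1 arrays, the highest value across groups. Replicates 2 and 3 gave -0.03 and 0.13, against 0.17 for knockdown replicate 3 with wild-type replicate 2. The replicate 1 arrays thus shared part of their deviations, and replicates 2 and 3 were not clearly paired by number. With the replicate number as a block 0 genes passed the adjusted threshold, the median of the splicing factors was -0.07, and 1149 genes and 3 splicing factors had an unadjusted p under 0.05, against 937 and 0 without it.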
